A study of Homo sapiens with 11 samples.

Results

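RNF135, also known as RIPLET, and 7 further genes of the antiviral interferon response (IFIH1, MAVS, TRIM25, IRF3, IRF7, ISG15 and IFIT1) were followed across 11 established T-ALL cell lines, as 8 of the 19775 genes that the array measures. T-ALL is an acute leukemia of immature T-cells. The lines fall into 2 groups by the activity of NKL homeobox genes, a subclass of developmental transcription factor genes that is frequently deregulated in this leukemia. PEER, LOUCY, HPB-ALL, CCRF-CEM, ALL-SIL and JURKAT are NKL-positive by label, and SUP-T1, MOLT-16, MOLT-14, MOLT-4 and CML-T1 are NKL-negative. No treatment, virus or interferon is named for any line in the labels. JURKAT took no part in the study's comparison, so that 5 NKL-positive lines were set against 5 NKL-negative lines, and its values are given on their own. A line was measured on 1 array, an HG U133 Plus 2.0, the line being the replicate, and a single value of a line has no error. The 8 genes were chosen by name to ask whether the pattern of RNF135 extends to its pathway. RNF135 itself was selected on its difference between the groups, as the largest upward one without overlap, and its values are therefore given as a description without a test.

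RIG-I and the IFIH1 product MDA5 are sensors in the cytoplasm that bind viral double-stranded RNA. RNF135 is a ubiquitin ligase that attaches ubiquitin chains to RIG-I, and TRIM25 is another ligase described for the same sensor. The activated sensors engage MAVS, an adaptor on the mitochondrial membrane, from which the kinases TBK1 and IKBKE activate the transcription factors IRF3 and IRF7. These switch on interferon genes, and secreted interferon then induces a large set of interferon-stimulated genes, among them ISG15, a ubiquitin-like modifier, and IFIT1, which binds viral RNA with foreign 5′ ends.

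Promoter sequences of the members are shown first, because interferon acts on its target genes through a promoter element, the interferon-stimulated response element (ISRE). RefSeq promoters of the GRCh38.p14 build, which cover 250 bases before and 50 bases after the gene start, matched 5 of the 8 members, namely IFIH1, MAVS, TRIM25, ISG15 and IFIT1. The core GAAANNGAAA was searched on both strands, and the windows below hold the matches with their flanks, written 5′ to 3′ on the strand of the gene, with the bases of the matches in capitals.
ISG15 (chr1:1013364-1013419, plus strand): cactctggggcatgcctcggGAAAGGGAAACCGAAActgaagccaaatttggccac
IFIT1 (chr10:89392487-89392549, plus strand): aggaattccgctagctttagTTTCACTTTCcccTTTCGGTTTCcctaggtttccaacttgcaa
IFIH1 (chr2:162318685-162318863, minus strand): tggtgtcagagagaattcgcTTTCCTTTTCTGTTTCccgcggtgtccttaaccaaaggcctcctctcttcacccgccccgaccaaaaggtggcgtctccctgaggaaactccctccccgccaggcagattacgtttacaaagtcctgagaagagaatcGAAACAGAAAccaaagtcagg
ISG15 held 2 overlapping matches, IFIT1 held 2 and IFIH1 held 3, of which 2 overlap. TRIM25 and MAVS held 0 within their windows. A match was found in 996 of 27305 promoters (3.65%) and in 26 of the 39 promoters of the list of interferon-stimulated genes (66.7%). A match describes the letters of the window and does not show a bound site.

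RNF135 was read from probe set 223592_s_at, which has the highest mean of its 2 probe sets. On the log2 scale of RMA, the array summary used by the authors, it was measured at 8.68 in ALL-SIL, 9.08 in CCRF-CEM, 9.81 in HPB-ALL, 8.84 in LOUCY and 10.04 in PEER, against 3.67 in CML-T1, 3.26 in MOLT-4, 3.49 in MOLT-14, 5.58 in MOLT-16 and 6.68 in SUP-T1. JURKAT gave 3.25. The 5 NKL-positive lines of the comparison were high, MOLT-16 and SUP-T1 lay in between, and CML-T1, MOLT-4, MOLT-14 and JURKAT were close to the lower quartile of an array, which was 3.45 to 3.60. Values at that level have no order among them and bound a fold change only from below.

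The second probe set, 223591_at, gave 7.65 in ALL-SIL, 8.27 in CCRF-CEM, 8.61 in HPB-ALL, 8.43 in LOUCY and 9.11 in PEER, against 3.26 in CML-T1, 3.39 in MOLT-4, 3.83 in MOLT-14, 6.01 in MOLT-16 and 5.26 in SUP-T1. JURKAT was measured at 2.88 by this probe set. Both probe sets placed the same 5 lines high, the same 2 lines in the middle and the same 4 lines low, while MOLT-16 and SUP-T1 exchanged their order. The correlation between the probe sets was 0.98 over the 11 lines.

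RNF135 averaged 9.29 ± 0.60 in NKL-positive lines and 4.54 ± 1.51 in NKL-negative lines by the first probe set (SD, n = 5 each), a difference of 4.75 (SE 0.65) on the log2 scale or 27.0-fold. By the second probe set the averages were 8.41 ± 0.53 in NKL-positive lines and 4.35 ± 1.22 in NKL-negative lines, a difference of 4.06 (SE 0.54) or 16.7-fold. The value of JURKAT lay 6.04 log2 units below the mean of the other NKL-positive lines and 1.29 below the mean of the NKL-negative lines. RNF135 levels followed the NKL label in the 10 lines of the comparison, as the selection of the gene fixes, and did not follow it in JURKAT, which took no part in the selection.

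**Figure D1:**
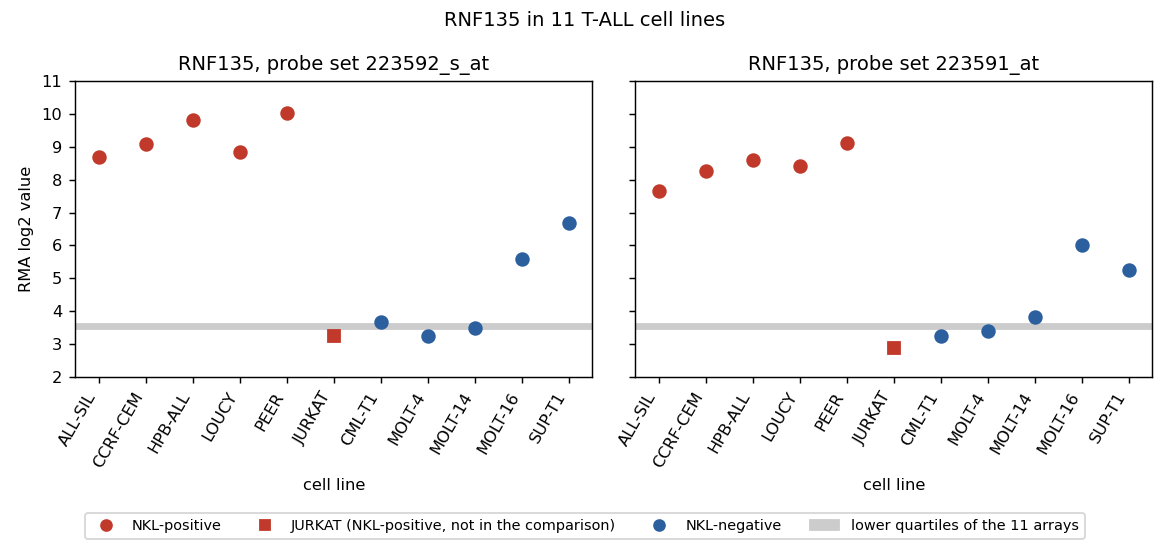
RMA log2 values (y-axis) of both RNF135 probe sets by cell line (x-axis), drawn in red for NKL-positive lines, as a red square for JURKAT and in blue for NKL-negative lines, with the lower quartiles of the arrays (3.45 to 3.60) as a grey band. In 223592_s_at the 5 NKL-positive lines of the comparison sit between 8.68 and 10.04, MOLT-16 and SUP-T1 at 5.58 and 6.68, and the other lines with JURKAT between 3.25 and 3.67.

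The arrays differ in a technical feature that crosses the groups. Poly-A spike-in controls, bacterial transcripts added before labelling, were at background in MOLT-16, CML-T1 and HPB-ALL (2.99 to 3.12) and at 5.65 to 8.76 in the other 8 lines. The difference of RNF135 was 4.68 within the lines of the comparison that carry these controls (4 NKL-positive, 3 NKL-negative) and 5.19 within those that lack them. Here and below, each difference within the lines without these controls sets HPB-ALL alone against CML-T1 and MOLT-16. Such a difference therefore rests on a single NKL-positive array. The summed signal of 8 T-cell markers, as its log2, was 13.55 to 14.36 in NKL-positive and 13.61 to 14.11 in NKL-negative lines. CD3D, a chain of the T-cell receptor complex, was measured at 12.64 to 13.44 in all 11 lines. CD2, another T-cell surface marker, spanned 4.13 to 10.89. Of the 8 markers 5 had a positive and 3 a negative difference. CD7 differed by 0.99, CD5 by 0.33 and LCK by -0.36, with correlations with RNF135 of 0.46, 0.39 and -0.66. The part of these T-cell markers in the RNF135 values was not tested. For the 5 measured B-cell markers the summed signal, given as its log2, was 7.65 to 10.20 in NKL-positive lines and 7.17 to 10.57 in NKL-negative lines. Of these markers CD79B, a chain of the B-cell receptor complex, averaged 7.02 ± 0.98 in NKL-positive lines and 4.83 ± 1.10 in NKL-negative lines (SD, n = 5 each; difference 2.19, SE 0.59, limma adjusted p = 0.808), and its correlation with RNF135 was 0.66. Of the other B-cell markers, MS4A1 differed by -0.67 and EBF1 by -0.60, with correlations with RNF135 of -0.28 and -0.33. CD79A differed by 0.15 and PAX5 by 0.41, with correlations of -0.11 and 0.30. The part of CD79B in the RNF135 values was not tested. The summed signal of 5 myeloid markers was 6.23 to 7.74 in NKL-positive lines and 6.24 to 7.69 in NKL-negative lines, with MPO up to 4.44, CSF1R up to 5.38, LYZ up to 5.48 and ITGAM up to 7.08. CD14 was at 3.04 to 3.98, with a difference of 0.51 (SE 0.19, limma adjusted p = 0.981) and a correlation with RNF135 of 0.53. Plasmacytoid dendritic cells are the major interferon producers of blood, and the summed signal of their 4 markers was 6.36 to 9.25 in NKL-positive lines and 6.0 to 8.53 in NKL-negative lines. Of these, TCF4 reached 9.17, IL3RA 5.68 and LILRA4 5.38, while CLEC4C did not exceed 3.58. The part of these markers in the RNF135 values was not tested either. In arrays of whole cultures, fewer cells of a kind and less RNA per cell cannot be told apart.

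The question was then whether the 7 other members share the pattern of RNF135. None of them passed an adjusted p of 0.05 in limma, where 3 of all 19775 genes (0.0152%) did, and none passed an unadjusted p of 0.05 in either direction, where 520 genes (2.63%) were higher and 521 genes (2.63%) were lower in NKL-positive lines. The groups overlapped in all 7 members, against 75 genes (0.379%) without overlap in the upward and 104 genes (0.526%) in the downward direction, RNF135 being 1 of the 75. The differences were positive for 5 and negative for 2 members with a median of 0.46, and over all genes they were positive for 9849 and negative for 9926 with a median of -0.002. This median depended on SUP-T1, as without that line the count was 4 positive and 3 negative with a median of 0.19. It was 0.52 within the lines with poly-A controls and near 0 (-0.015) within those without.

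IFIH1 (chr2:162267074-162318684), the sensor of long double-stranded RNA, was measured at 5.86 in ALL-SIL, 5.78 in CCRF-CEM, 7.04 in HPB-ALL, 4.92 in LOUCY and 6.50 in PEER, against 5.93 in CML-T1, 6.06 in MOLT-4, 4.76 in MOLT-14, 6.57 in MOLT-16 and 3.44 in SUP-T1, with 5.99 in JURKAT. The groups overlapped broadly, and only SUP-T1 was at the level of the lower quartile of its array. IFIH1 averaged 6.02 ± 0.80 in NKL-positive lines and 5.35 ± 1.26 in NKL-negative lines (SD, n = 5 each; difference 0.67, SE 0.60, 95% interval -0.65 to 1.99, limma adjusted p = 0.981). Its other probe sets gave differences of 0.65 and 0.33 at low values, 2.64 to 4.59 and 2.79 to 3.77, near the lower quartiles. The difference was 0.19 without SUP-T1, so that this line carried most of it.

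RIG-I, the substrate of RNF135, is no member and lies outside the rule for named genes, but is given here because of this role. Its gene, RIGI, was measured at 6.42 in ALL-SIL, 6.96 in CCRF-CEM, 6.57 in HPB-ALL, 6.96 in LOUCY and 6.08 in PEER, against 7.47 in CML-T1, 7.38 in MOLT-4, 5.96 in MOLT-14, 5.49 in MOLT-16 and 5.77 in SUP-T1, with 6.78 in JURKAT. RIGI transcripts were thus well above the lower quartile in lines with and without high RNF135, and the difference was 0.18 (SE 0.42, limma adjusted p = 0.992).

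TRIM25 (chr17:56887909-56914049), the other ligase, was nearly constant by the probe set used, with values of 10.04 in ALL-SIL, 9.56 in CCRF-CEM, 9.49 in HPB-ALL, 9.92 in LOUCY and 9.36 in PEER, against 9.57 in CML-T1, 9.94 in MOLT-4, 9.76 in MOLT-14, 9.44 in MOLT-16 and 9.34 in SUP-T1, and 9.37 in JURKAT. The whole range was smaller than 1 log2 unit. TRIM25 averaged 9.67 ± 0.29 in NKL-positive lines and 9.61 ± 0.24 in NKL-negative lines (SD, n = 5 each; difference 0.06, SE 0.20, 95% interval -0.38 to 0.51, limma adjusted p = 0.993). The interval leaves out the difference of RNF135, as do those of the other members. That difference was selected as the largest upward one without overlap, so this says little about TRIM25 itself. A weaker second probe set, 206911_at, gave a difference of 0.78 (SE 0.56) and varied more, from 4.28 in CML-T1 to 7.29 in SUP-T1.

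MAVS (chr20:3846834-3876118), the mitochondrial adaptor, gave 9.68 in ALL-SIL, 9.40 in CCRF-CEM, 8.70 in HPB-ALL, 8.49 in LOUCY and 8.30 in PEER, against 8.70 in CML-T1, 9.35 in MOLT-4, 8.98 in MOLT-14, 8.64 in MOLT-16 and 9.03 in SUP-T1, and 9.14 in JURKAT. It was high in every line, and the highest and the lowest value both belonged to NKL-positive lines. MAVS averaged 8.91 ± 0.60 in NKL-positive lines and 8.94 ± 0.29 in NKL-negative lines (SD, n = 5 each; difference -0.03, SE 0.29, 95% interval -0.67 to 0.62, limma adjusted p = 0.998). Its 3 other probe sets gave -0.23, 0.42 and -0.26 and do not share a direction.

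IRF3 (chr19:49659572-49665857), the factor that is present before infection and is activated by phosphorylation, was measured at 8.27 in ALL-SIL, 8.71 in CCRF-CEM, 8.74 in HPB-ALL, 8.94 in LOUCY and 8.32 in PEER, against 8.97 in CML-T1, 8.98 in MOLT-4, 9.45 in MOLT-14, 8.28 in MOLT-16 and 8.54 in SUP-T1, with 8.66 in JURKAT. The highest value belonged to MOLT-14, a line with low RNF135. IRF3 averaged 8.60 ± 0.29 in NKL-positive lines and 8.84 ± 0.45 in NKL-negative lines (SD, n = 5 each; difference -0.25, SE 0.25, 95% interval -0.80 to 0.30, limma adjusted p = 0.981).

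IRF7 (chr11:612555-615950), which is itself induced by interferon and amplifies the response, gave 7.15 in ALL-SIL, 7.08 in CCRF-CEM, 6.22 in HPB-ALL, 6.50 in LOUCY and 6.78 in PEER, against 7.08 in CML-T1, 5.77 in MOLT-4, 6.38 in MOLT-14, 5.43 in MOLT-16 and 6.13 in SUP-T1. JURKAT was measured at 7.17, with RNF135 near the lower quartile. IRF7 averaged 6.75 ± 0.39 in NKL-positive lines and 6.16 ± 0.63 in NKL-negative lines (SD, n = 5 each; difference 0.59, SE 0.32, 95% interval -0.12 to 1.29, limma adjusted p = 0.981). Among the 7 members this gene came nearest to an unadjusted p of 0.05. The difference was 0.78 within the lines with poly-A controls and -0.04 within those without. With JURKAT among the NKL-positive lines it was 0.66 (SE 0.30, limma adjusted p = 0.962) and passed an unadjusted p of 0.05, as did 473 genes (2.39%) in that direction at this setting.

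ISG15 (chr1:1013497-1014540), with 2 matches to the ISRE core printed above, was measured at 8.75 in ALL-SIL, 10.53 in CCRF-CEM, 8.83 in HPB-ALL, 10.16 in LOUCY and 9.19 in PEER, against 7.58 in CML-T1, 9.31 in MOLT-4, 9.83 in MOLT-14, 10.18 in MOLT-16 and 8.28 in SUP-T1, with 8.36 in JURKAT. All 11 lines carried it well above the array medians, which were 4.63 to 4.76. ISG15 averaged 9.49 ± 0.81 in NKL-positive lines and 9.04 ± 1.08 in NKL-negative lines (SD, n = 5 each; difference 0.46, SE 0.54, 95% interval -0.75 to 1.66, limma adjusted p = 0.982). The difference was 0.09 without CML-T1, 0.20 without CCRF-CEM and 0.74 without MOLT-16, and -0.05 within the lines that lack poly-A controls.

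IFIT1 (chr10:89392623-89406487), with 2 matches as well, was measured at 5.77 in ALL-SIL, 7.30 in CCRF-CEM, 3.53 in HPB-ALL, 4.68 in LOUCY and 6.08 in PEER, against 4.07 in CML-T1, 6.13 in MOLT-4, 5.68 in MOLT-14, 4.87 in MOLT-16 and 3.39 in SUP-T1, with 4.59 in JURKAT. CCRF-CEM was highest, while HPB-ALL and SUP-T1 were near the lower quartile, although their RNF135 values are 9.81 and 6.68. IFIT1 averaged 5.47 ± 1.43 in NKL-positive lines and 4.83 ± 1.13 in NKL-negative lines (SD, n = 5 each; difference 0.64, SE 0.72, 95% interval -0.95 to 2.24, limma adjusted p = 0.981). Without CCRF-CEM the difference was 0.19, without SUP-T1 it was 0.28 and without HPB-ALL it was 1.13, and it was 0.89 within the lines with poly-A controls and -0.94 within those without. The intervals of IFIH1, ISG15 and IFIT1 are wide, so that smaller differences of either sign were not detectable with 5 lines a group.

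**Figure D2:**
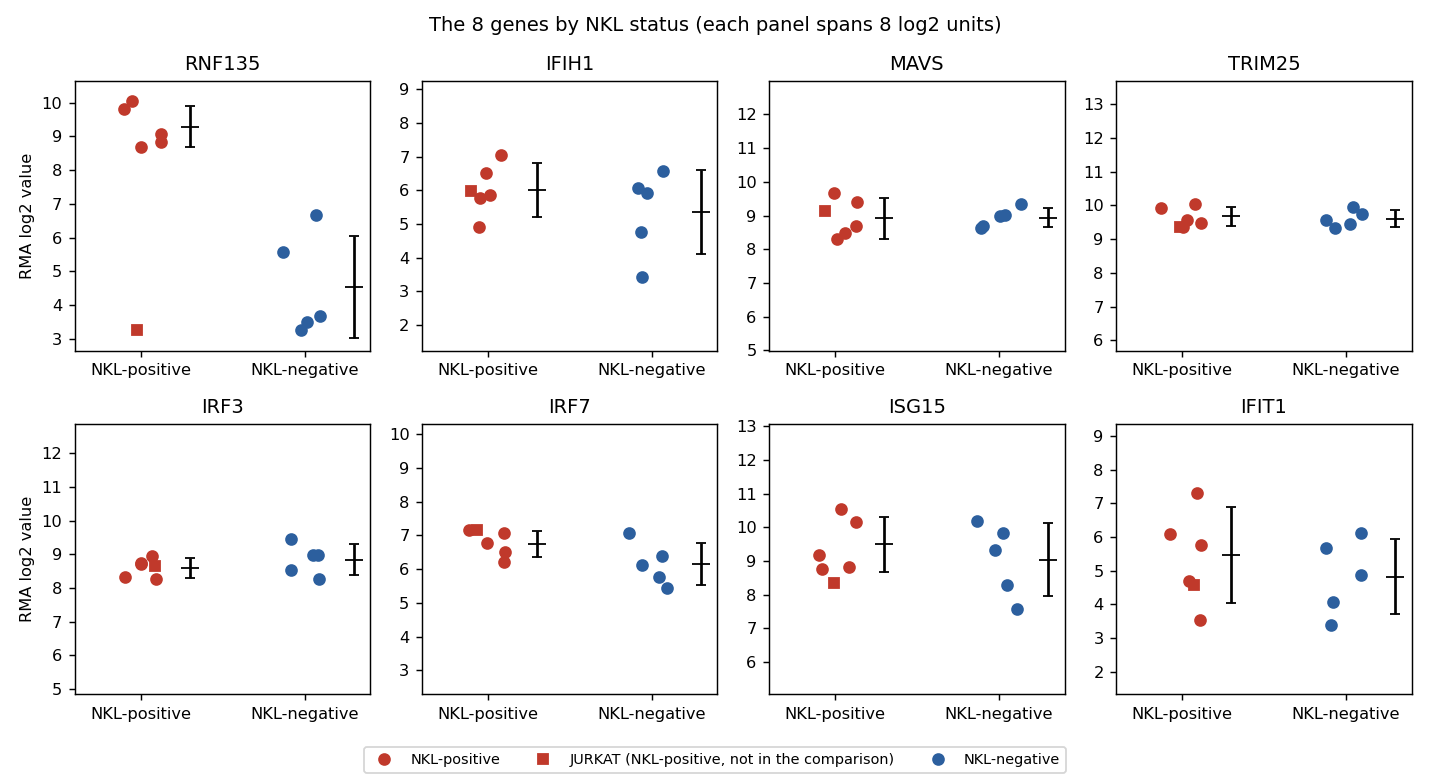
RMA log2 values (y-axis, each panel spanning 8 log2 units) of the 8 genes in NKL-positive lines (red, JURKAT as a square) and NKL-negative lines (blue), with the mean and SD of the 5 lines of each group as bars beside the points. RNF135 separates at 9.29 ± 0.60 in NKL-positive lines and 4.54 ± 1.51 in NKL-negative lines, while the points of the other 7 genes overlap.

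As a description over the 11 lines, which share their arrays and normalization, the correlation with RNF135 was 0.29 for ISG15, 0.17 for IFIH1, 0.17 for IRF7, 0.11 for IFIT1, -0.04 for TRIM25, -0.21 for MAVS and -0.49 for IRF3. The quartiles of the correlation with RNF135 over the 10256 genes with an SD of at least 0.5 were -0.23, -0.01 and 0.21, so that 5 of the 7 members lay within them, ISG15 above and IRF3 below. MAVS, TRIM25 and IRF3 vary by less than that SD.

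The lists of the wider pathway, with RNF135 left out, are given in the order of signalling. Of 14 RNA and DNA sensors, 7 had a positive and 7 a negative difference (median 0.02). TLR3, an endosomal receptor of double-stranded RNA, was the only sensor with an unadjusted p under 0.05 (difference 0.90, SE 0.40, limma adjusted p = 0.981), at low values of 3.01 to 4.81 in the NKL-positive group and 2.79 to 3.83 in the NKL-negative group. Its other probe sets gave 0.69 and -0.05. DHX9, a helicase, differed by 0.42 (SE 0.31) and AIM2, a sensor of DNA, by -0.45 (SE 0.35). Of the 7 other ligases described for RIG-I, 4 were positive and 3 negative (median 0.06), with CBL at 0.35, TRIM15 at 0.30 and RNF122 at 0.14.

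Of 16 adaptors and kinases, 12 were positive and 4 negative (median 0.16). TBK1, the kinase that phosphorylates IRF3, was measured at 7.66 in ALL-SIL, 7.85 in CCRF-CEM, 8.61 in HPB-ALL, 9.18 in LOUCY and 8.44 in PEER, against 5.76 in CML-T1, 6.02 in MOLT-4, 6.08 in MOLT-14, 8.59 in MOLT-16 and 7.77 in SUP-T1. MOLT-16 and SUP-T1, the NKL-negative lines with intermediate RNF135, were within the range of the NKL-positive lines, and so was JURKAT with 8.21, a line with low RNF135. TBK1 averaged 8.35 ± 0.61 in NKL-positive lines and 6.84 ± 1.26 in NKL-negative lines (SD, n = 5 each; difference 1.50, SE 0.56, limma adjusted p = 0.981), past an unadjusted p of 0.05. Its correlation with RNF135, 0.69, was the highest of the 96 pathway genes compared and held rank 100 among the 10256 genes. As the highest of 96 genes is high by that choice, this rank is a description and does not set TBK1 apart. TBKBP1, a TBK1 adaptor, differed by 0.69 and ZCCHC3, a cofactor of the sensors, by 0.26. Among 18 negative regulators 11 were positive and 7 negative (median 0.08), with TNIP1 at 0.63 (SE 0.29), the deubiquitinase USP3 at -0.92 and RBCK1 at -0.73.

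Of 8 IRF factors, 4 were positive and 4 negative (median -0.04), and IRF5 differed by 0.83 (SE 0.72) with its highest value, 8.75, in LOUCY. Of 18 interferon genes, 8 were positive and 10 negative (median -0.04). None of them had a mean above the median of the means of all probe sets, so that these signs say little. IFNL1, a type III interferon that reached 6.60 in ALL-SIL, differed by 0.84 (SE 0.66) and IFNA17 by 0.36. IFNA1, at 2.72 to 3.26 over the lines, differed by -0.13. IFNB1, the first interferon gene downstream of IRF3 and named here outside the rule, was measured at 3.06 to 3.45 in the NKL-positive group and 3.15 to 3.62 in the NKL-negative group, at the level of the lower quartiles. Of 11 genes for interferon receptors and the JAK-STAT pathway, 3 were positive and 8 negative (median -0.22), with the receptor chains IFNGR2 at 1.02 (SE 0.58), IFNAR1 at -0.30 and IFNGR1 at -0.27. This median was 0.0015 without MOLT-16, -0.04 without CML-T1 and 0.03 within the lines with poly-A controls. Of 5 genes for ISG15 conjugation, 4 were positive and 1 negative (median 0.31), with the ISG15 ligase HERC5 at 0.59 and the conjugating enzyme UBE2L6 at -0.20. This median was -0.10 without SUP-T1 and 0.64 without ALL-SIL. None of these genes passed an adjusted p of 0.05 in limma, which only 0.0152% of all genes did. None separated the groups, where 0.379% of all genes did so upward and 0.526% downward. Counts of 0 in lists of this size are near those shares.

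The 48 interferon-stimulated genes had 32 positive and 16 negative differences with a median of 0.46. Of these genes 2 were higher at an unadjusted p under 0.05 and 0 were lower, where 2.63% of all genes were higher. OAS3, an oligoadenylate synthetase of the RNase L pathway, was measured at 8.19 in ALL-SIL, 8.54 in CCRF-CEM, 7.35 in HPB-ALL, 6.52 in LOUCY and 7.04 in PEER, against 5.10 in CML-T1, 7.28 in MOLT-4, 5.73 in MOLT-14, 6.72 in MOLT-16 and 4.44 in SUP-T1, with 5.92 in JURKAT (difference 1.67, SE 0.57, limma adjusted p = 0.981). IFITM3, a membrane protein that restricts viral entry, averaged 10.82 ± 1.37 in NKL-positive lines and 8.74 ± 1.66 in NKL-negative lines (SD, n = 5 each; difference 2.08, SE 0.85, limma adjusted p = 0.981). The IFITM3 difference was 3.45 within the lines with poly-A controls and -1.41 within those without, and probes of IFITM1, IFITM2 and IFITM3 can share signal because these genes are close copies. PML, of nuclear bodies, differed by 0.67 (SE 0.36). Over all 143 pathway genes other than RNF135, 83 were positive and 60 negative (median 0.09). An unadjusted p under 0.05 was reached by 4 higher and 0 lower genes, where 2.63% of all genes were higher and 2.63% lower. After adjustment 0 passed, where 0.0152% of all genes did.

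**Figure D3:**
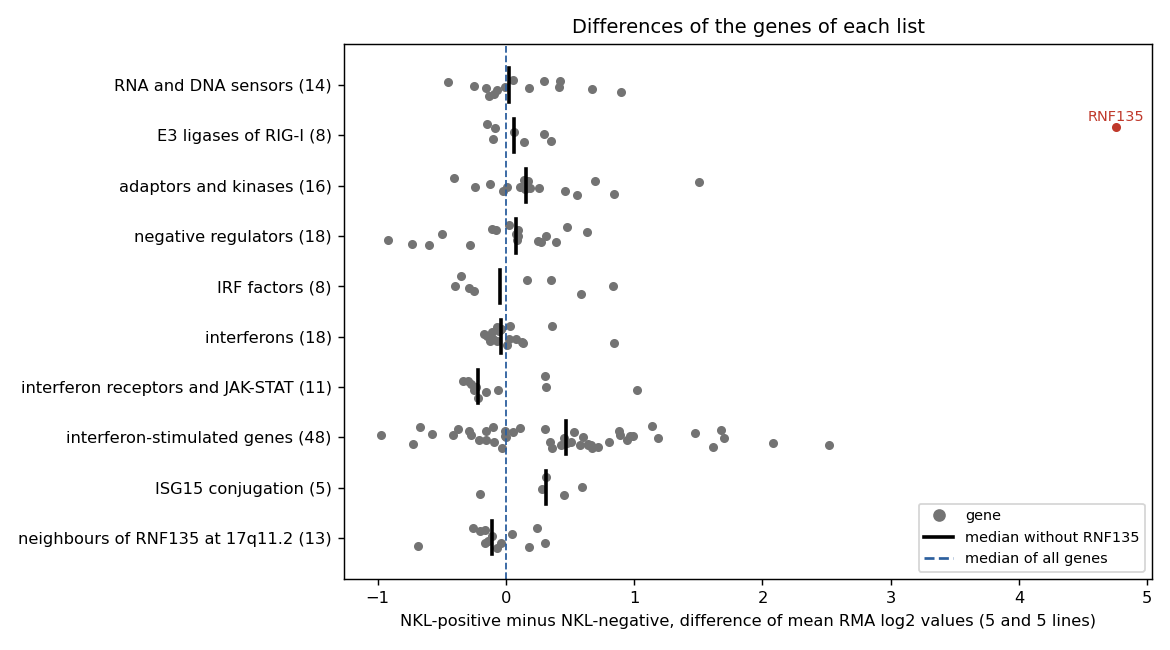
Difference of mean RMA log2 values, NKL-positive minus NKL-negative (x-axis, 5 and 5 lines), of each gene (points) in the pathway lists and among the neighbours of RNF135 (rows, number of genes in brackets), with the median of a list without RNF135 as a black bar and that of all genes as a dashed line. RNF135 lies at 4.75, far from the rest of its list, and the medians run between -0.22 and 0.46.

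The positive median of the interferon-stimulated genes depended on single lines, most of all on SUP-T1, and was 0.24 without CCRF-CEM. SUP-T1 had the lowest value of the 11 lines in 27 of the 48 genes (56.2%), against 8.16% of all genes and 9.18% of genes with an SD of at least 0.5. Its median deviation from the median of the lines was -1.75 log2 units, and 23 genes lay at least 2 log2 units below. In SUP-T1 13 of the 48 genes (27.1%) were under the lower quartile of the array, where 17.1% of all genes were, and the other lines had 0 to 4 such genes of the list. LOUCY was the next, with the lowest value in 10 genes. Without SUP-T1 the differences were 25 positive and 23 negative with a median of 0.07, and an unadjusted p under 0.05 was reached by 1 higher and 1 lower gene, near the shares of all genes at this setting (2.75% higher, 2.83% lower). The higher gene was OAS3 (difference 1.32, SE 0.54, limma adjusted p = 0.855), and the lower gene was SAMD9, an antiviral factor named after its value was seen (difference -0.94, SE 0.25, limma adjusted p = 0.689). The median was 0.72 within the lines with poly-A controls and -0.15 within those without.

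SUP-T1 was also the line with the lowest IFIH1 (3.44) and IFIT1 (3.39), with an intermediate RNF135 (6.68 and 5.26 by its probe sets). Its TRIM25 was lowest by the probe set used (9.34, against 9.36 in PEER) and highest by the other one (7.29). In JURKAT, with RNF135 near the lower quartile, the median deviation of the interferon-stimulated genes was -0.30, and in LOUCY, with RNF135 at 8.84, it was -0.36. CCRF-CEM had the highest median deviation, 0.52, and MOLT-16, with RNF135 at 5.58, had 0.48. The lines thus stood in another order by these genes than by RNF135. Of their promoters with a RefSeq entry, the 26 with an ISRE core had a median difference of 0.53 and the 13 without it 0.36. For all promoters these medians were -0.008 and 0.002. The split by the core was not repeated without SUP-T1, on which the median of the list depended most, and was not tested.

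**Figure D4:**
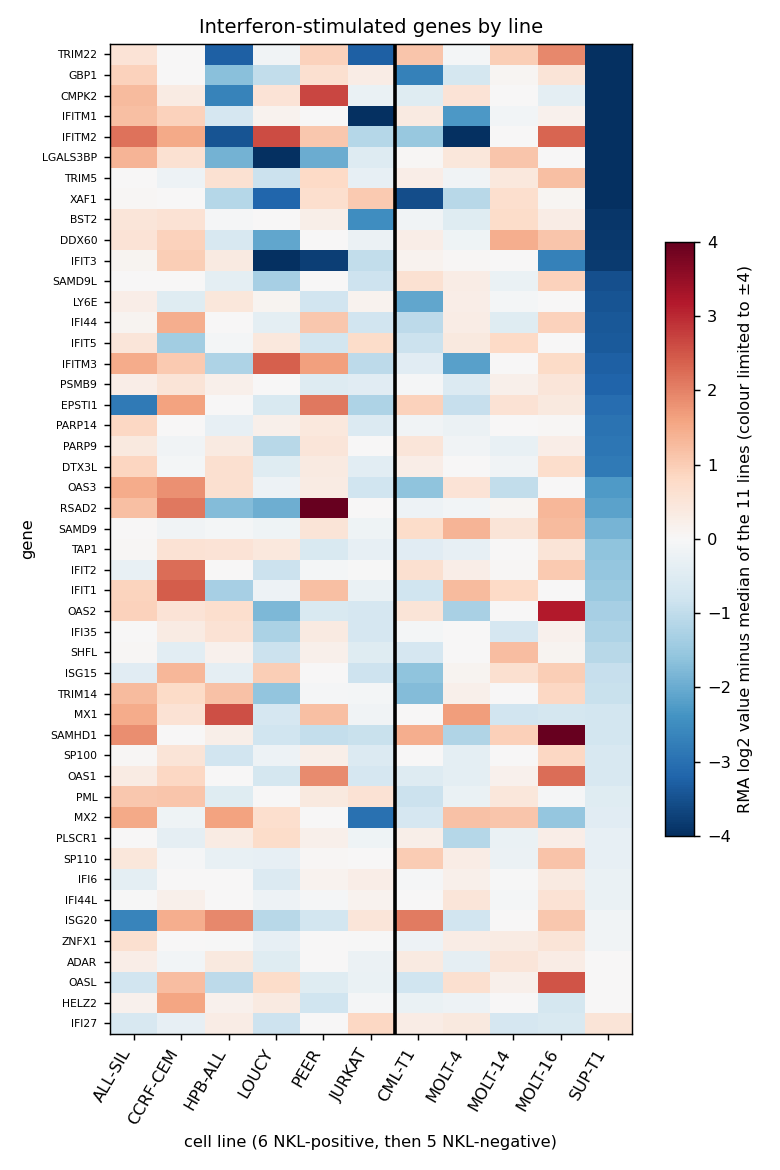
RMA log2 value minus the median of the 11 lines (colour, limited to ±4) of the 48 interferon-stimulated genes (rows, ordered by their value in SUP-T1) in the 6 NKL-positive and then the 5 NKL-negative lines (columns). SUP-T1, at the right, is lowest in 27 genes with a median deviation of -1.75.

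RNF135 lies at 17q11.2 (chr17:30958921-30999911, GRCh38.p14 RefSeq), close to NF1, the gene of neurofibromatosis. Of 14 genes listed around it 13 were measured, with starts from -176.2 kb (CRLF3) to 1183.6 kb (RHOT1) relative to that of RNF135. The groups overlapped in all 13, as they did in nearly all genes of the array, with 4 positive and 9 negative differences between -0.69 (EVI2A, SE 0.65) and 0.30 (LRRC37B, SE 0.27) and a median of -0.11. None reached an unadjusted p of 0.05 in limma, where 2.63% of all genes did in each direction. ADAP2, which overlaps the start of RNF135 by 402 bases, differed by -0.16 (SE 0.39), NF1 by 0.24 (SE 0.55) and SUZ12, a polycomb subunit, by -0.04 (SE 0.27). ATAD5, TEFM, EVI2B, RAB11FIP4, COPRS and UTP6 lay between -0.20 and 0.18. The correlations of the neighbours with RNF135 over the 11 lines were -0.30 to 0.29. EVI2B was lowest in JURKAT, with 6.57 against 8.24 to 8.58 in the 5 other NKL-positive lines. The NKL-negative lines spanned 6.96 to 10.18 for EVI2B. NF1 and RHOT1 were instead highest in JURKAT, at 6.65 and 9.94, with CCRF-CEM (5.68) and HPB-ALL (9.67) the next highest. A share of neighbours without a difference is near that of all genes and says nothing particular about this region.

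**Figure D5:**
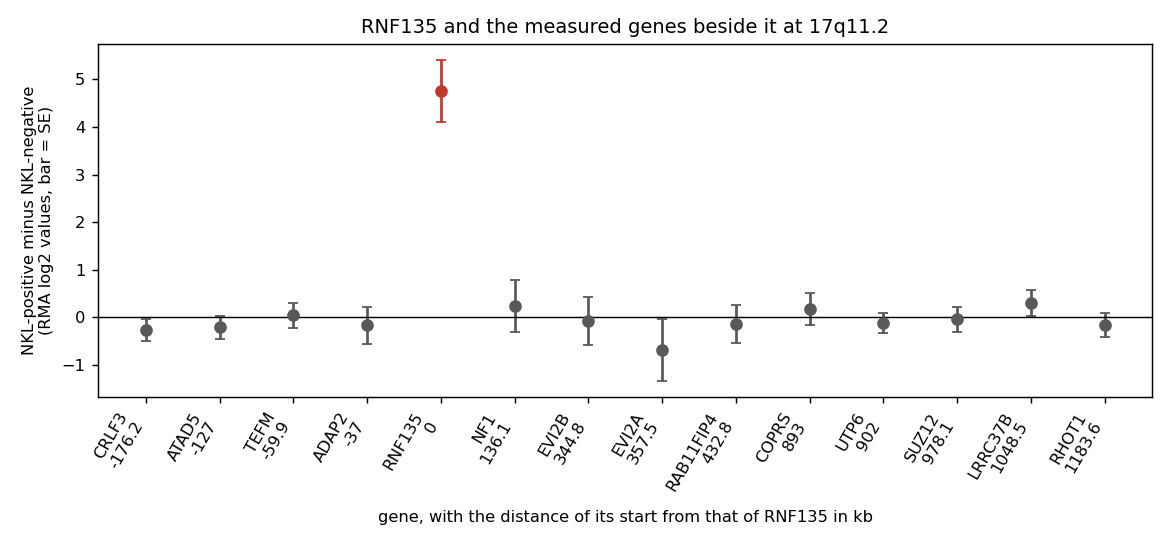
Difference of mean RMA log2 values, NKL-positive minus NKL-negative (y-axis, 5 and 5 lines, bars are SE), of RNF135 (red) and 13 measured neighbours (grey) in chromosomal order (x-axis, distance between starts in kb). RNF135 is at 4.75 and the neighbours are between -0.69 and 0.30.

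Genes with a pattern most like that of RNF135 over the 11 lines lay elsewhere in the genome, and both their differences between the groups and the place of JURKAT are in part fixed by the likeness, so that the values are a description. PHTF1, a putative homeodomain factor, had a correlation of 0.89 with 6.20 in ALL-SIL, 6.69 in CCRF-CEM, 7.84 in HPB-ALL, 7.79 in LOUCY and 7.16 in PEER, against 5.30 in CML-T1, 3.02 in MOLT-4, 4.01 in MOLT-14, 6.35 in MOLT-16 and 5.30 in SUP-T1. JURKAT gave 2.96. ZNF600, a zinc finger gene, reached 0.89 and TAGLN2, an actin-binding protein of the transgelin family, 0.87, followed by SDCCAG8 (0.87), a centrosomal protein, WWC3 (0.86), DYNLT3 (0.85), a dynein light chain, MIR4435-2HG (0.84), a microRNA host transcript, and PRDX4 (0.84), a peroxiredoxin. In MOLT-16, the NKL-negative line with intermediate RNF135, ZNF600 was at 7.31 and TAGLN2 at 11.05, within the NKL-positive ranges of 7.22 to 7.87 and 11.02 to 11.70. JURKAT had WWC3 at 4.96, DYNLT3 at 3.20 and ZNF600 at 3.60.

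The most opposed patterns were those of C14orf132 (-0.92), BMERB1 (-0.91), NETO2 (-0.89), an auxiliary subunit of kainate receptors, and KLF15 (-0.88), a zinc finger factor. NETO2 was measured at 2.96 to 3.77 in the 5 NKL-positive lines and at 8.67 to 9.77 in the NKL-negative lines, with 10.40 in JURKAT. C14orf132 spanned 3.26 to 3.71 in the 5 NKL-positive lines and 4.15 to 8.55 in the NKL-negative lines, and JURKAT was at 7.28.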

How the data were processed

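Gene expression was measured in 11 T-ALL cell lines, 1 HG U133 Plus 2.0 array each. The authors processed the arrays by RMA (background correction, quantile normalization, summary per probe set), and the deposited log2 values were used without further scaling. The submitters' processing notes name affy and limma, whose versions are not given in the sources used here. A ratio to the sample mean named in the methods was not seen in the deposited values. The members and lists were chosen with earlier results of these data known.

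The 62 control probe sets were left out, and limma 3.58.1 in R 4.3.3 was fitted over 54613 probe sets (5 NKL-positive against 5 NKL-negative lines) with Benjamini-Hochberg adjustment at 0.05. Of several probe sets of a gene the one with the highest mean over the lines stood for it. Separate cultures are not named, so that the p-values measure the spread between lines. Named genes were the members, the 3 of each list with the smallest p, the neighbours, and the 8 most and 4 least correlated genes. Genes named outside this rule include RIGI, IFNB1, SAMD9 and further cell type markers such as CD3D and CD2. Precision is limited by the number of arrays, and the fit was tested on simulated data. Alternatives were all 11 lines, each line left out, a term for lines without poly-A controls, lines with these controls alone, median centring, a floor at the 25th percentile, the mean over probe sets, a filter at the median and an intensity trend, and for the correlations Spearman, 10 lines, the other RNF135 probe set and lines with poly-A controls. Promoters and positions came from RefSeq (GRCh38.p14).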

Additional observations from a re-analysis of the deposited data

Results flagged for a closer look

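RNF135 in JURKAT stood apart from the other NKL-positive lines. Its value was 3.25, and the nearest other line of the group, ALL-SIL, had 8.68, so that this gap took up most of the range of the 6 lines. The 5 other values were high because the gene was selected on them, so that this gap is a description. Of 16 groups examined in this way no other had such a gap. About 1 in 20 is flagged by chance, a rate that does not apply to this group because of the selection. JURKAT was left out of the study's comparison, and with it among the NKL-positive lines the difference of RNF135 was 3.75.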

How the results depend on the processing

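No paired analysis was possible because a cell line carries a single NKL status. The difference of RNF135 was 4.44 to 5.29 with single lines left out, 3.75 with all 11 lines and 4.41 to 4.82 under the other alternatives. The number of the 7 other members past the adjusted threshold was 0 under each alternative. The difference of MAVS, which is near 0, changed its sign to 0.01 (0.0117) with all 11 lines, and spanned -0.22 to 0.13 with single lines left out, where it was positive in 4 of 10 cases. That of TRIM25 spanned -0.0275 to 0.15 and was negative in 2 of 10. The median difference of the interferon genes moved to 0.08 with only poly-A lines used. The causes were not tested. Single lines left out moved the median of the interferon-stimulated genes between 0.07 (without SUP-T1) and 0.62. Among the lists, the medians of adaptors and kinases, interferon-stimulated genes and neighbours kept their sign with each single line left out. The others, with medians of -0.22 to 0.31 over the 10 lines, changed it at least once. No other member reached a correlation of 0.7 with RNF135 under any alternative, the highest being 0.43 for ISG15 with the other RNF135 probe set. The filter at the median left no interferon gene, so that this list has no value there. Levels near the lower quartile of an array limit what can be said of low values.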
